A study of Mus musculus with 6 samples.

Results

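The genes of fatty acid oxidation in mitochondria and peroxisomes were followed in cells of the fetal mouse kidney. They were taken by gene symbol from a fixed list of 33, out of 23420 genes in the count table, and all 33 were found. By the place of the encoded protein, 19 are mitochondrial, 8 peroxisomal and 2 have both places (Eci2 and Crat). Cpt1c, of the endoplasmic reticulum, stands alone, and 3 are regulators (Ppara, Ppargc1a and Ppargc1b). The study sequenced polyadenylated RNA of kidney cells at embryonic day 18.5, from the cross of a wild-type female and a heterozygous Six2-GFP male. The transgene lights up the cap mesenchyme, in which nephron progenitors lie. Cells were sorted by fluorescence into a positive fraction (Six2-high) and a negative fraction (Six2-low), with 3 libraries each, gated against kidneys that lacked it. The protocol describes 11 embryos, 7 of them transgenic, whose kidneys were kept apart from the others, and it does not tie a library to single embryos. Both fractions come from transgenic embryos, and Six2-low is a mixture of every other kidney cell type that passed the scatter gates. Each Six2-high library has a Six2-low library of the same preparation: replicate 1 (TRI kit) carries the first tag in its title, and replicates 2 (Norgen kit) and 3 (TRI kit) the later one. The tag is read here as a date, which the labels do not state. The p-values measure the spread between these libraries, which may in part be technical.

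In mitochondria a fatty acid enters as an acyl-carnitine and is shortened in a cycle of dehydrogenation, hydration, a second dehydrogenation and cleavage by a thiolase, with electrons passed on through the electron transfer flavoprotein. Peroxisomes run a similar cycle on very long and branched chains, with oxidases in place of the first dehydrogenase, and hand shortened products to mitochondria. PPARα and the coactivators PGC-1α and PGC-1β raise transcription of many of these enzymes, and the proximal tubule of the mature kidney is known for its reliance on this fuel.

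Total counts ran from 23535399 to 29791421 per library. Six2 itself was at 849 to 1479 CPM (counts scaled to library size) in the positive fraction against 11.1 to 23.4 CPM in the negative one, as the labels have it. The ribosomal RNA precursor Rn45s took 9.59% of the counts in Six2-high replicate 3 and at most 0.68% elsewhere, so that library stands apart. Among the 16 proximal tubule markers, all 15 tested were lower in Six2-high, and their summed level was 81.8 to 144 CPM against 1355 to 1751 CPM in Six2-low. Lower summed levels in Six2-high were also found for loop and distal tubule (4.26 to 10.2 against 799 to 978 CPM), stromal (219 to 274 against 2337 to 2805 CPM) and endothelial markers (23.3 to 27.0 against 802 to 1403 CPM). By test, 9 of 10 loop and distal tubule markers and all 8 endothelial markers were lower, where 28.7% of all genes were. Markers this low in Six2-high can pass a filter on low counts through Six2-low alone, so these counts are descriptions. Of 8 stromal markers 7 were lower and 1 was higher, at a log2 fold change of 1.33. The 12 cap mesenchyme markers went the other way (4536 to 6980 against 750 to 926 CPM). They include Six2, the gene of the sorting transgene, and the marker lists were chosen with earlier results of these data known. The marker values are therefore descriptions and not an independent check of the fractions. The part of these shifts in cell type in the values below was not tested, and in such bulk samples fewer cells of a type and less RNA per cell cannot be told apart.

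Of the 33 members 32 were tested, and 16 differed between the fractions, 14 lower and 2 higher in Six2-high (edgeR quasi-likelihood, adjusted p under 0.05). Of all 15347 genes 50.1% differed, so the share called is near the background. By direction, 43.8% of the members were lower and 6.25% higher, against 28.7% and 21.4% of all genes. Most differences were small: 6 members were lower by at least 1 log2 unit (21.5% of all genes were) and 0 were higher by as much (6.59% of all genes were). The 14 and the 6 include Acox2, which passed the filter on low counts only through Six2-low, as described below. The median log2 fold change was -0.33 over the members and 0.046 over all genes. The libraries of the fractions did not overlap for 18 members (56.2%), 15 lower and 3 higher, where 60.0% of all genes did not overlap. Matched by preparation, 22 members were lower in Six2-high each time, 6 higher each time and 4 mixed. Of all 15347 genes 6004 were lower and 6398 higher each time. With the preparation as a replicate block, 24 members passed, 20 lower and 4 higher, against 64.6% of all genes. Without both libraries of replicate 3, 8 passed, all lower, and Acadvl, Hadha, Eci1, Etfa, Etfdh, Acaa2, Acaa1a and Cpt1c did not. Without both of replicate 2, 12 passed, and Eci1, Etfdh, Acaa1a and Acox2 did not. Without Six2-high replicate 3, the library with much Rn45s, 15 passed. The share of all genes that passed with libraries left out is not given here.

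**Figure D1:**
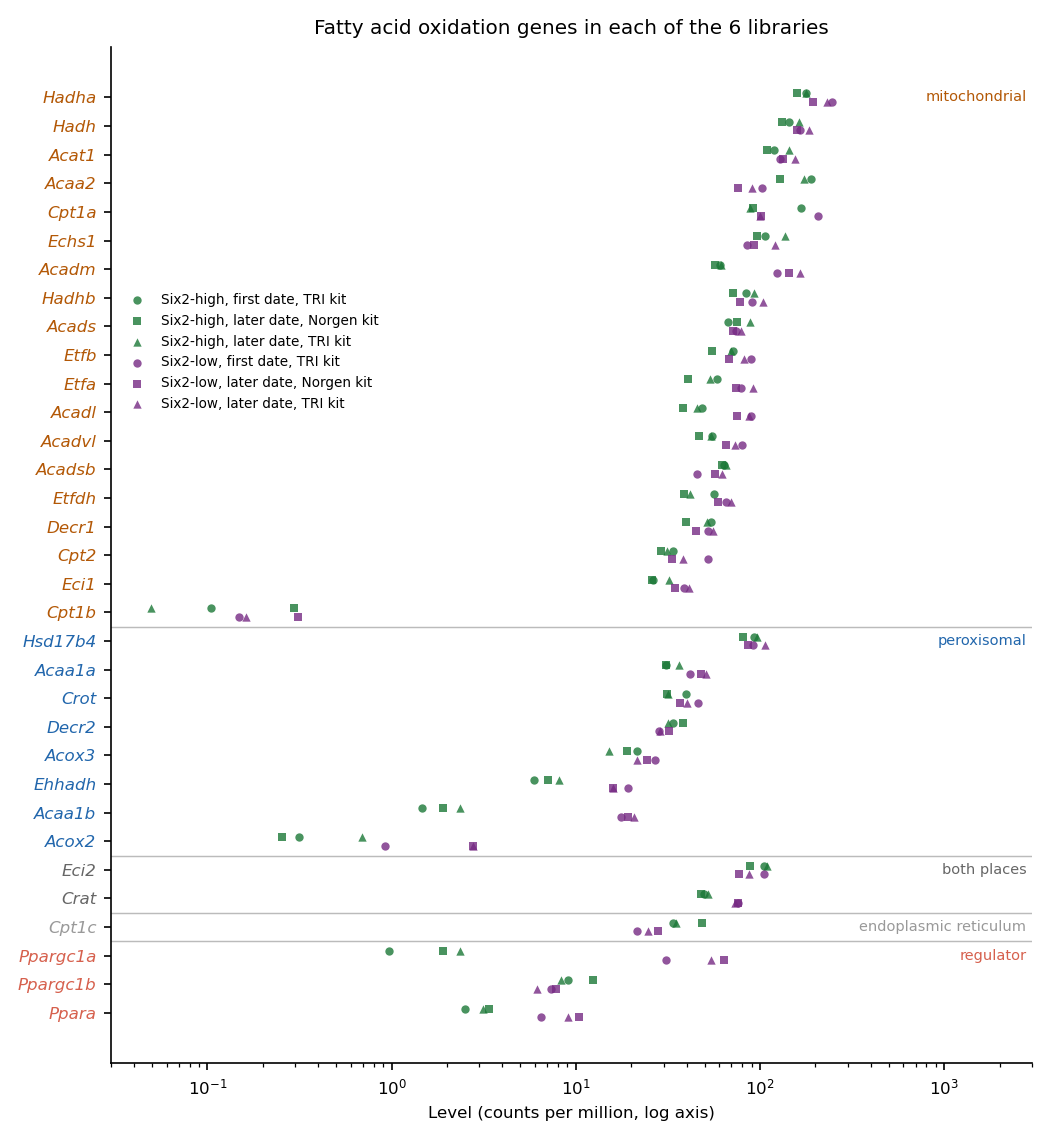
Level of each member in CPM (log axis) in the 6 libraries, by class. Green marks are Six2-high, purple marks Six2-low, and the shape gives the preparation. Most enzymes sit between 20 and 250 CPM in both fractions, while Ppargc1a, Acaa1b, Acox2, Ehhadh and Ppara are lower in every Six2-high library.

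The peroxisomal members had the lower median and the larger single differences. Among 18 tested mitochondrial members 7 were lower and 1 higher, with a median log2 fold change of -0.26 and a range of -1.26 to 0.87. Among the 8 peroxisomal members 4 were lower and 0 higher, with a median of -0.46 and a range of -3.34 to 0.22. The shares called, 44.4% of the mitochondrial and 4 of the 8 peroxisomal members, stand beside 50.1% of all genes. By preparation the mitochondrial median was -0.26, -0.27 and -0.21 in replicates 1 to 3, and the peroxisomal median was -0.39, -0.49 and -0.50. The mitochondrial median lay above the peroxisomal one each time, by 0.12, 0.22 and 0.29 log2 units. This difference of medians was not tested, as the members are not replicates. The 4 lower peroxisomal members include Acox2, which passed the filter on low counts only through Six2-low. At -2.39 it lies below the class median, so it can only lower that median. The medians and gaps are not given here without it. With the replicate block 11 mitochondrial members were lower and 1 higher, and 6 peroxisomal members were lower and 1 higher, where 33.0% of all genes were lower and 31.7% higher. The mitochondrial count was 5 without Six2-high replicate 2 or without Six2-low replicate 3, and the matching share of all genes is not given here.

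**Figure D2:**
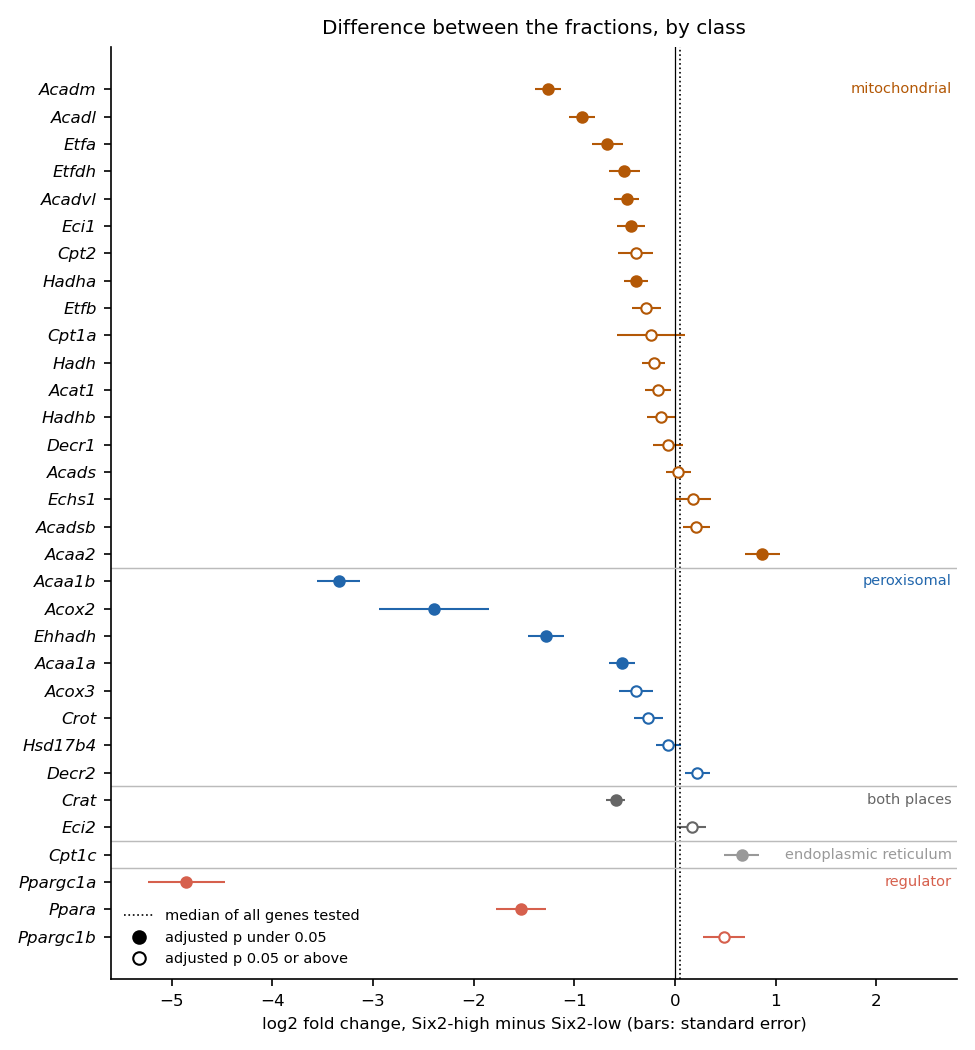
Log2 fold change of the 32 tested members, Six2-high minus Six2-low, with standard errors, by class. Filled points passed an adjusted p of 0.05, and the dotted line is the median of all genes tested, 0.046. The peroxisomal points reach from -3.34 to 0.22 and the mitochondrial points from -1.26 to 0.87.

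The regulators held the largest difference of all members. Ppargc1a, the coactivator gene whose product drives mitochondrial and fatty acid oxidation genes (chromosome 5, 51454250 to 51567726), was at 0.973, 1.90 and 2.36 CPM in Six2-high replicates 1 to 3 and at 30.7, 63.7 and 54.1 CPM in Six2-low. The fractions were far apart, and the first preparation was lowest within both. Its log2 fold change was -4.85 (SE 0.38, edgeR adjusted p = 1.5e-05), with -4.87, -5.01 and -4.48 by preparation. Ppara, the nuclear receptor gene that responds to fatty acids (chromosome 15, 85734983 to 85802819), was at 2.50, 3.37 and 3.14 CPM against 6.44, 10.5 and 9.07 CPM. Every Six2-high library was below every Six2-low library, at a log2 fold change of -1.53 (SE 0.25, adjusted p = 0.0010). Ppargc1b, the related coactivator gene (chromosome 18, 61298136 to 61400431), went the other way, at 9.07, 12.4 and 8.35 CPM against 7.29, 7.80 and 6.19 CPM. Its fractions did not overlap, but its log2 fold change of 0.49 (SE 0.21) did not pass (adjusted p = 0.082) and did with the replicate block (adjusted p = 0.022). Per kilobase of transcript, Ppargc1b had the higher level of the pair in Six2-high (2.72 ± 0.598 against 0.27 ± 0.109 CPM per kilobase, SD, n = 3) and Ppargc1a in Six2-low (7.66 ± 2.62 against 1.94 ± 0.224).

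The carnitine palmitoyltransferases of the entry step differed in level and in direction. Cpt1a, the form of liver and kidney in the outer mitochondrial membrane (chromosome 19, 3322334 to 3385733), was at 167, 92.0 and 88.5 CPM in Six2-high and 208, 101 and 100.2 CPM in Six2-low. The groups overlapped, since replicate 1 was the highest library in both fractions. Its log2 fold change of -0.24 (SE 0.34) did not pass (edgeR adjusted p = 0.58), and it turned to 0.16 without Six2-low replicate 1. Within preparations the difference was -0.32, -0.14 and -0.18 log2 units, and with the replicate block the difference was -0.21 (SE 0.07, adjusted p = 0.034). Cpt1b, the muscle form (chromosome 15, 89416405 to 89425863), had 11 counts in Six2-high and 17 in Six2-low over 3 libraries each and was not tested. In the annotation used here, 81.4% of the Cpt1b exon positions are shared with Gm44502 on the same strand, which is not in the count table. Whether the overlap affected the counts of Cpt1b, and with them the shares of the Cpt1 genes below, is not known. Cpt1c, the form of neurons in the endoplasmic reticulum (chromosome 7, 44959372 to 44974851), was higher in Six2-high, at 33.7, 48.4 and 35.2 CPM against 21.5, 27.8 and 24.7 CPM. The fractions did not overlap, and the log2 fold change was 0.66 (SE 0.17, adjusted p = 0.012), or 0.53 without Six2-low replicate 1 (adjusted p = 0.057). Of the summed level per kilobase of the Cpt1 genes, Cpt1c made up 23.8%, 44.7% and 38.0% in Six2-high replicates 1 to 3 and 13.8%, 29.7% and 27.5% in Six2-low. It was larger in Six2-high in each preparation, and the ranges overlapped between preparations. Cpt2, which turns acyl-carnitine back to acyl-CoA at the inner membrane, was at 29.2 to 33.8 CPM against 33.2 to 52.3 CPM. Its log2 fold change of -0.39 (SE 0.17, adjusted p = 0.095) passed under the block by preparation (adjusted p = 0.022), and also without Six2-low replicate 2 (adjusted p = 0.041).

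Of the acyl-CoA dehydrogenases, which start each mitochondrial cycle, those for medium, long and very long chains were lower in Six2-high. Acadm, for medium chains (chromosome 3, 153922357 to 153944632), was at 61.0, 56.9 and 61.6 CPM in Six2-high and 123, 143 and 164 CPM in Six2-low. It had the largest loss of the mitochondrial members, a log2 fold change of -1.26 (SE 0.13, edgeR adjusted p = 6.2e-05). Acadl, for long chains (chromosome 1, 66830839 to 66863277), was at 48.6, 38.1 and 45.8 CPM against 89.2, 75.5 and 87.1 CPM. All 3 Six2-high libraries were below all Six2-low libraries, at -0.93 log2 units (SE 0.13, adjusted p = 0.00043). Acadvl, for very long chains and bound to the inner membrane, was at 55.1, 46.8 and 54.4 CPM against 79.5, 65.3 and 73.3 CPM (-0.48, SE 0.12, adjusted p = 0.010). It shares 1151 of its 2686 exon positions with Dvl2 on the other strand, which had 115 CPM in Six2-high against 84.9 in Six2-low, so its value is uncertain if reads were counted without strand. Acads, for short chains, was at 66.7, 75.0 and 88.3 CPM against 74.3, 71.8 and 78.9 CPM. Its groups overlapped, with a log2 fold change of 0.031 (SE 0.13, adjusted p = 0.85). Acadsb, which acts in isoleucine breakdown, was at 61.9 to 65.5 CPM against 45.3 to 62.6 CPM and did not pass (0.21, SE 0.13, adjusted p = 0.23).

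The stretch before the start of Acadm is shown because Acadm, of the mitochondrial members, differed most. Windows of 250 bases before to 50 after the RefSeq start (build GRCm38.p6) were at hand for 26 of the 33 members, and those of Acaa2, Acat1, Cpt1b, Crat, Decr1, Hsd17b4 and Ppargc1b were not used. The letters AAGGTCA, a single site for monomeric nuclear receptors, were searched on both strands. They occurred in 1 of the 26 members, Acadm, and in 4.72% of all 32851 windows. The capitals mark them, on the opposite strand, with the first capital 249 bases before the start (chr3:153944644-153944893, minus strand).
Acadm: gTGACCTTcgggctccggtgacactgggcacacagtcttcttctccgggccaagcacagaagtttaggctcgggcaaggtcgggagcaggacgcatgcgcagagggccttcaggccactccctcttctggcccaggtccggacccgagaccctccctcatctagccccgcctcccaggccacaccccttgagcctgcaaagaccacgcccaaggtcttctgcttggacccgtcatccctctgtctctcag
The longer TNAAGGTCA, which holds the same letters and is the site of estrogen-related receptors, occurred in 0 of the 26 members and 1.28% of windows. The direct repeat that PPARα binds with its partner occurred in 0 members and 0.0396% of windows. A match is a run of letters, not a measured site.

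The flavoproteins that take electrons from these dehydrogenases were lower in part. Etfa, the alpha subunit (chromosome 9, 55454508 to 55512243), was at 58.4, 40.9 and 53.6 CPM in Six2-high and 78.5, 73.7 and 91.6 CPM in Six2-low, without overlap (-0.67, SE 0.15, edgeR adjusted p = 0.0069). Etfb, the beta subunit, was at 54.9 to 71.8 CPM against 67.9 to 89.0 CPM. Its groups overlapped and it did not pass (-0.28, SE 0.15, adjusted p = 0.14), but the block by preparation gave adjusted p = 0.0088. In the annotation used here, 53.0% of the Etfb exon positions are shared with Gm45233 on the same strand. Gm45233 is not in the count table, so whether the overlap affected the counts of Etfb is not known. Etfdh, which passes the electrons to ubiquinone, was at 38.8 to 56.5 CPM against 59.2 to 69.2 CPM (-0.50, SE 0.16, adjusted p = 0.027). Its call was lost on leaving out replicate 2 (adjusted p = 0.069) or 3 (adjusted p = 0.096) of Six2-high, or replicate 3 of Six2-low (adjusted p = 0.092).

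The later steps of the mitochondrial cycle included the only mitochondrial member that was higher. Acaa2, the mitochondrial thiolase of the last step (chromosome 18, 74779197 to 74806208), was at 189.6, 128 and 173 CPM in Six2-high and 103, 75.7 and 90.7 CPM in Six2-low. The fractions did not overlap, and the log2 fold change was 0.87 (SE 0.17, edgeR adjusted p = 0.0033), with 0.88, 0.76 and 0.93 by preparation. Hadha and Hadhb encode the subunits of the trifunctional protein, which carries out the last 3 steps on long chains. Hadha was at 159 to 177 CPM against 195 to 246 CPM (-0.39, SE 0.12, adjusted p = 0.027), a call lost on leaving out replicate 2 of Six2-high (adjusted p = 0.069) or replicates 1 (adjusted p = 0.059) or 3 (adjusted p = 0.090) of Six2-low. Hadhb was at 71.8 to 92.6 CPM against 77.8 to 104 CPM and did not pass (-0.14, SE 0.14, adjusted p = 0.45). Eci1, an isomerase needed for unsaturated chains, was at 26.0 to 32.3 CPM against 34.6 to 41.1 CPM (-0.44, SE 0.14, adjusted p = 0.026). That call was lost on leaving out replicate 2 of Six2-high (adjusted p = 0.068) or replicate 3 of Six2-low (adjusted p = 0.11). The remaining enzymes did not pass: Hadh, a hydroxyacyl-CoA dehydrogenase gene (-0.21, SE 0.12), Echs1, a hydratase gene (0.18, SE 0.17), Decr1, a dienoyl-CoA reductase gene (-0.073, SE 0.15) and Acat1, the acetoacetyl-CoA thiolase gene (-0.17, SE 0.13). Of these, Hadh passed with the replicate block (adjusted p = 0.022).

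**Figure D3:**
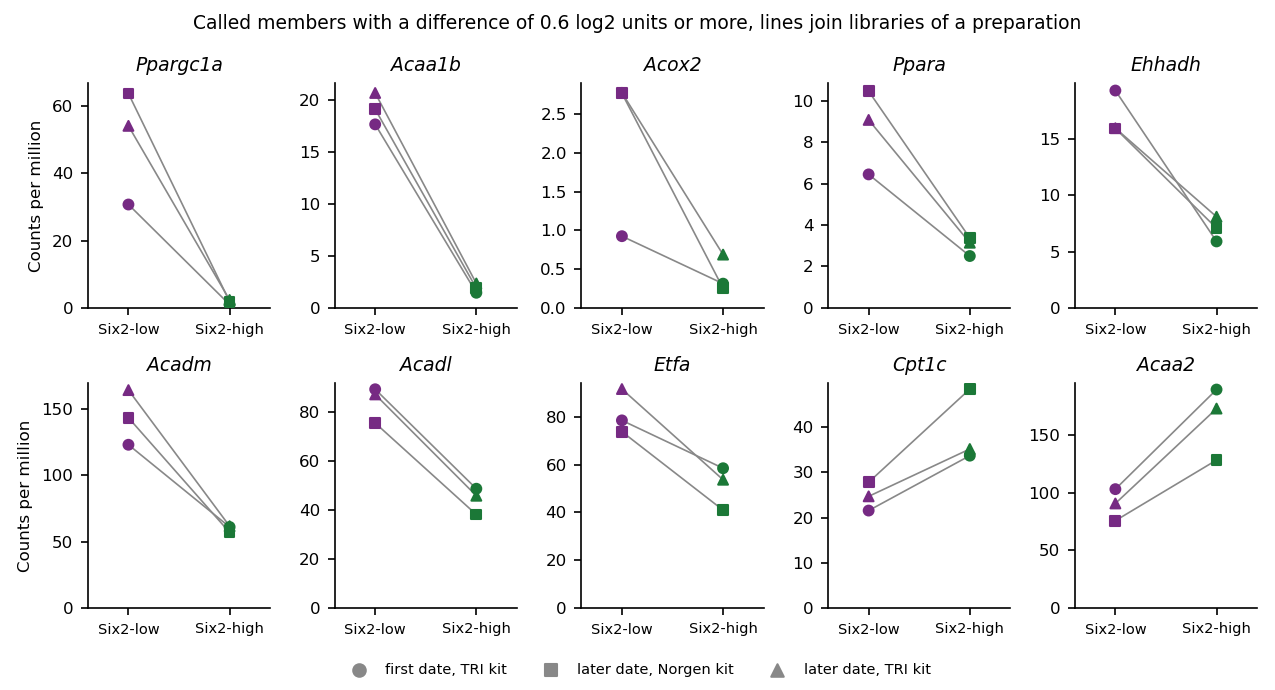
CPM of the 10 members that passed with a difference of at least 0.6 log2 units, on linear axes from 0. Lines join the Six2-low and Six2-high library of a preparation, and the marker shape gives the preparation. All 3 lines fall toward Six2-high for 8 genes and rise for Cpt1c and Acaa2.

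In the peroxisome, both thiolase genes, an oxidase and a bifunctional enzyme were lower in Six2-high. Acaa1b, a peroxisomal thiolase gene (chromosome 9, 119148023 to 119157093), was at 1.46, 1.90 and 2.36 CPM in Six2-high and 17.7, 19.1 and 20.7 CPM in Six2-low. Its log2 fold change of -3.34 (SE 0.22, edgeR adjusted p = 5.4e-06) was the largest among the enzymes. Acaa1a, its close copy on the same chromosome (119339676 to 119350299), was at 30.7, 30.7 and 36.2 CPM against 41.9, 47.8 and 50.9 CPM (-0.53, SE 0.13, adjusted p = 0.0085). Both genes were separate between the fractions. Of the level per kilobase of the pair, Acaa1b held 4.72%, 6.06% and 6.35% in Six2-high replicates 1 to 3 and 29.5% to 30.6% in Six2-low. With all exon positions as length these shares were 9.66% to 12.8% and 47.4% to 48.7%. Of the 50-base windows of the principal Acaa1b transcript, 583 of 1640 (35.5%) also occur in Acaa1a transcripts, so reads of the pair can be confused and the split between them is uncertain. Acaa1b also shares 224 exon positions with Dlec1 on the other strand, which had 4.04 CPM in Six2-high against 22.4 in Six2-low. Acaa1a shares 290 with Myd88 on the other strand, which had 5.90 CPM against 22.2. The values of both genes are therefore uncertain for that reason as well, if reads were counted without strand.

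The stretches before the starts of this pair are shown because the copies differed in size of change. Capitals mark CCAAT, searched on both strands (here on the opposite strand, so read as ATTGG), which 12 of the 26 members and 37.4% of all windows hold. The 134 bases before each RefSeq start, free of annotated exons, are chr9:119341160-119341293 (plus strand) and chr9:119157094-119157227 (minus strand). The Acaa1a stretch lies inside the gene span given above (119339676 to 119350299), and the Acaa1b stretch just outside its span, which ends at 119157093. The 2 stretches thus differ in position relative to the annotated genes.
Acaa1a: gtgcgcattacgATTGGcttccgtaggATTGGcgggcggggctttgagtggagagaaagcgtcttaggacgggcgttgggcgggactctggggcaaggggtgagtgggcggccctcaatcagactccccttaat
Acaa1b: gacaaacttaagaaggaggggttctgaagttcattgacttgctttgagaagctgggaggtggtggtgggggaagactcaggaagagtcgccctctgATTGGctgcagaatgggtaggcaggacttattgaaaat
In a global alignment 82 of 161 columns (50.9%) were identical. The marked letters begin 122 and 107 bases before the start of Acaa1a and 38 before that of Acaa1b.

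Of the oxidase and bifunctional enzymes, those of lowest level fell. Acox2, an oxidase gene for branched chains and bile acid intermediates (chromosome 14, 8225511 to 8259353), was at 0.313, 0.253 and 0.687 CPM against 0.925, 2.77 and 2.77 CPM, from 29 counts in Six2-high and 182 in Six2-low. Its log2 fold change was -2.39 (SE 0.55, edgeR adjusted p = 0.0067), with the smallest difference in replicate 1. With 9, 6 and 14 counts in Six2-high and 25, 71 and 86 in Six2-low, it passed the filter on low counts only through Six2-low, where it is high. Its call is therefore a description and lends no weight to the count of lower peroxisomal members. Ehhadh, the bifunctional enzyme gene that PPARα is known to raise in liver (chromosome 16, 21761287 to 21787807), was at 5.91, 7.09 and 8.10 CPM against 19.3, 15.9 and 15.97 CPM. Its fractions did not overlap (-1.28, SE 0.18, adjusted p = 0.00043). Hsd17b4, the other bifunctional enzyme gene, which serves branched and very long chains (chromosome 18, 50128201 to 50196269), was at 93.3, 81.1 and 96.5 CPM against 91.2, 86.0 and 107 CPM. The groups overlapped, with a log2 fold change of -0.068 (SE 0.12, adjusted p = 0.67). Acox3, an oxidase gene for branched chains, was at 15.1 to 21.5 CPM against 21.5 to 27.0 CPM (-0.38, SE 0.17, adjusted p = 0.090). Crot, whose product makes carnitine esters of medium chains for export, was at 31.5 to 39.8 CPM against 36.9 to 46.1 CPM (-0.26, SE 0.14, adjusted p = 0.16). Decr2, the peroxisomal dienoyl-CoA reductase gene, was at 31.5 to 38.3 CPM against 28.3 to 31.9 CPM (0.22, SE 0.12, adjusted p = 0.17). Under the block by preparation Acox3 (adjusted p = 0.0094) and Crot (adjusted p = 0.021) passed as lower and Decr2 (adjusted p = 0.047) as higher. Without Six2-high replicate 1 Acox3 (adjusted p = 0.030) and Crot (adjusted p = 0.029) also passed.

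Summed per kilobase of transcript, the peroxisomal members reached 87.4 ± 3.15 CPM per kilobase in Six2-high (SD, n = 3) and 113 ± 5.37 in Six2-low, and the mitochondrial members 719.6 ± 83.01 and 830.1 ± 72.4. The peroxisomal sums did not overlap between the fractions and the mitochondrial sums did. The peroxisomal share of both sums was 10.5%, 11.8% and 10.3% in Six2-high replicates 1 to 3 and 11.4%, 12.8% and 11.8% in Six2-low. It was lower in Six2-high in each preparation, though the ranges of the fractions overlapped. Hsd17b4 alone made up 39.0%, 36.1% and 40.2% of the peroxisomal sum in Six2-high and 30.9%, 29.2% and 33.4% in Six2-low. In level per kilobase, the leading mitochondrial members in Six2-high were Acaa2 (108 ± 20.9), Hadh (81.7 ± 8.51), Etfb (73.2 ± 10.3) and Echs1 (72.6 ± 13.5). The last 3 did not pass the main test between fractions. With the replicate block Hadh and Etfb passed as lower in Six2-high (edgeR adjusted p = 0.022 and 0.0088), and Echs1 did not pass. In Six2-low the leading members were Hadh (94.7 ± 7.45), Etfb (89.1 ± 12.0) and Acadm (70.1 ± 10.1), and Acaa2 stood at 59.3 ± 9.04.

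**Figure D4:**
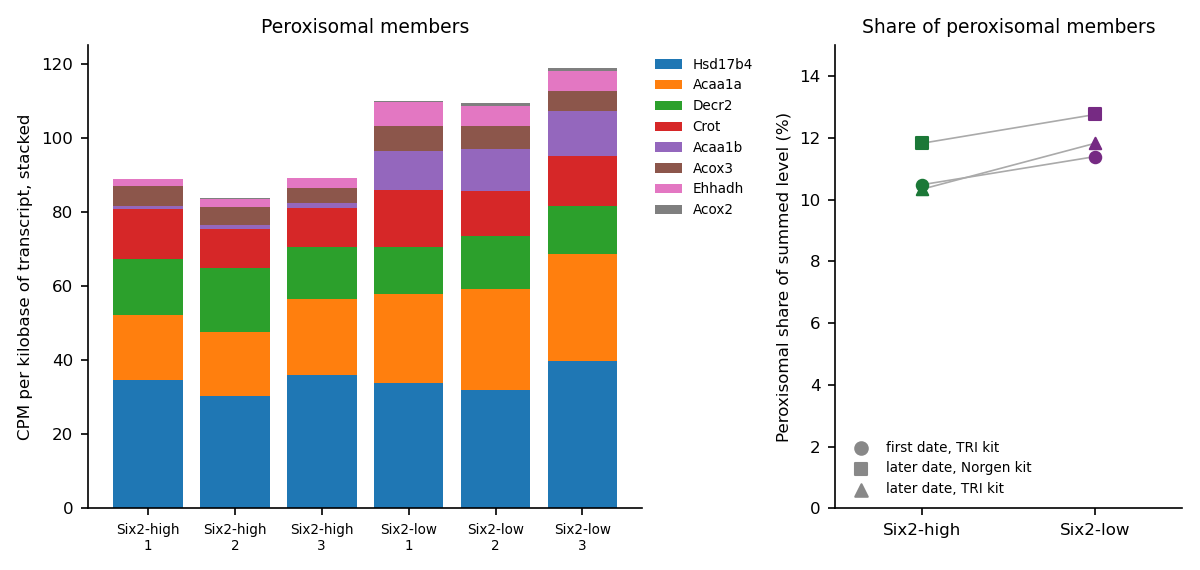
Left, level of the 8 peroxisomal members in CPM per kilobase of transcript, stacked, in each library. Right, their share of the summed level of mitochondrial and peroxisomal members, with lines joining libraries of a preparation. The stacks reach 83.8 to 89.3 in Six2-high and 110 to 119 in Six2-low, and the share is between 10.3% and 12.8% throughout.

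The enzymes with both places went apart. Crat, which moves acetyl and other short groups between CoA and carnitine (chromosome 2, 30400471 to 30415813), was at 49.6, 47.8 and 52.0 CPM in Six2-high and 76.0, 75.9 and 73.1 CPM in Six2-low. The libraries of each fraction lay close together and the fractions far apart for their spread (-0.59, SE 0.10, edgeR adjusted p = 0.0011). Eci2, an isomerase for unsaturated chains, was at 88.2 to 109 CPM against 77.1 to 105 CPM, with overlap (0.17, SE 0.14, adjusted p = 0.36).

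Other genes of these pathways, in 7 lists, showed where larger differences lay. Of 108 tested genes 47 were lower and 5 higher in Six2-high (48.1% called, against 50.1% of all genes), with a median log2 fold change of -0.36. Genes of fatty acid uptake and activation were lower in 10 and higher in 2 of 16 (75% called). The 10 and the 47 include Cd36, named here after its values were seen. With 11, 2 and 6 counts in Six2-high and 505, 254 and 336 in Six2-low, Cd36 passed the filter on low counts only through Six2-low. Its call is therefore a description and lends no weight to these counts. Fabp4, a fatty acid binding protein of endothelium and fat, was at -7.11 (SE 0.31). Acss1, a mitochondrial acetyl-CoA synthetase gene, was at -2.99 (SE 0.17) and Acsl1, a long-chain acyl-CoA synthetase gene, at -1.64 (SE 0.11). The edgeR adjusted p of these 3 genes were 9.5e-07, 2.7e-06 and 7.1e-06. Among other peroxisomal enzymes and transporters 17 of 28 were lower and 0 higher (60.7% called). Pipox, Dao and Hao2, oxidases of amino acids and hydroxy acids that the proximal tubule is known to express, were at -4.68 (SE 0.24), -4.17 (SE 0.25) and -4.89 (SE 0.36). The peroxins, which build the organelle, were nearly level, with a median of 0.04 and 1 lower and 1 higher of 16 (12.5% called). Pex26 was at -0.92 (SE 0.18, edgeR adjusted p = 0.0031), and Pex7 at -0.39 did not pass (adjusted p = 0.089) except under the block by preparation (adjusted p = 0.017). That block called 4 peroxins in place of 2, where it called 64.6% of all genes.

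Among nuclear receptors and mitochondrial regulators 7 of 17 were lower and 1 higher (47.1% called, against 50.1% of all genes). The block by preparation gave 7 lower and 4 higher, where 64.6% of all genes passed. Esrrg and Esrrb, estrogen-related receptors that PGC-1α coactivates, were at -3.04 (SE 0.19) and -5.22 (SE 0.63), and Pparg was at -3.51 (SE 0.36), with edgeR adjusted p of 4.5e-06, 0.00017 and 6.9e-05. Other mitochondrial acyl-CoA enzymes were lower in 9 of 18 and higher in 0 (50% called). Acot13 was at -1.01 (SE 0.17), Pcca at -1.08 (SE 0.18) and Hibadh at -0.68 (SE 0.15). Of 7 tested genes of carnitine supply and malonyl-CoA 2 were lower (28.6%, against 28.7% of all genes) and 0 higher. The lower ones were Aldh9a1 at -0.34 (SE 0.12, adjusted p = 0.039) and the carnitine carrier gene Slc22a5 at -0.33 (SE 0.12, adjusted p = 0.044). Acaca and Acacb both encode enzymes that make malonyl-CoA, which inhibits the entry step, and they went apart. Acaca was at 0.51 (SE 0.19, edgeR adjusted p = 0.052) and passed as higher with the replicate block (adjusted p = 0.00067). Acacb, named here after its values were seen, was at -0.40 (SE 0.18, adjusted p = 0.093). It passed as lower with the replicate block (adjusted p = 0.025). Of 6 ketone body genes (33.3% called) Bdh1 was lower (-1.64, SE 0.35) and Aacs higher (0.47, SE 0.12). Oxct1 at -0.44 (SE 0.23) did not pass (adjusted p = 0.15) except under the block by preparation (adjusted p = 0.023). That block called 5 genes of carnitine supply and malonyl-CoA and 4 ketone body genes, each in place of 2, where it called 64.6% of all genes.

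Between preparations, Cpt1a was the member that varied most clearly with the date. Within fractions the first date stood above the later date, both with the TRI kit, by 0.98 log2 units (SE 0.08, edgeR adjusted p = 0.014). It was the only member called in either direction, against 0.769% of all genes (0.397% higher at the first date), and 8 members (25.0%) had an unadjusted p under 0.05, against 21.5% of all genes. Each date has 1 TRI preparation, so the SE comes from how far the fractions disagree over all 3 preparations in the model. The cause of the difference between dates was not tested. Cell type markers moved with the date in Six2-low: erythroid markers summed to 1769.9 CPM in replicate 1 against 138 and 141 CPM in replicates 2 and 3, and endothelial markers to 1403 against 802 and 804 CPM. Their part in the date contrast was not tested. Ppargc1a stood at -0.93 (SE 0.16, adjusted p = 0.066) and did not pass. Each kit at the later date is likewise 1 preparation, and the TRI one holds the library with 9.59% Rn45s, so kit and preparation cannot be told apart. The kits, compared at the later date, gave 0 calls among the members and 0% of all genes by edgeR. At an unadjusted p under 0.05 there were 15 members (46.9%) against 18.8% of all genes, and 25 of 32 members had positive values (TRI preparation minus Norgen preparation), with a median of 0.18 log2 units against 0.0050 over all genes.

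**Figure D5:**
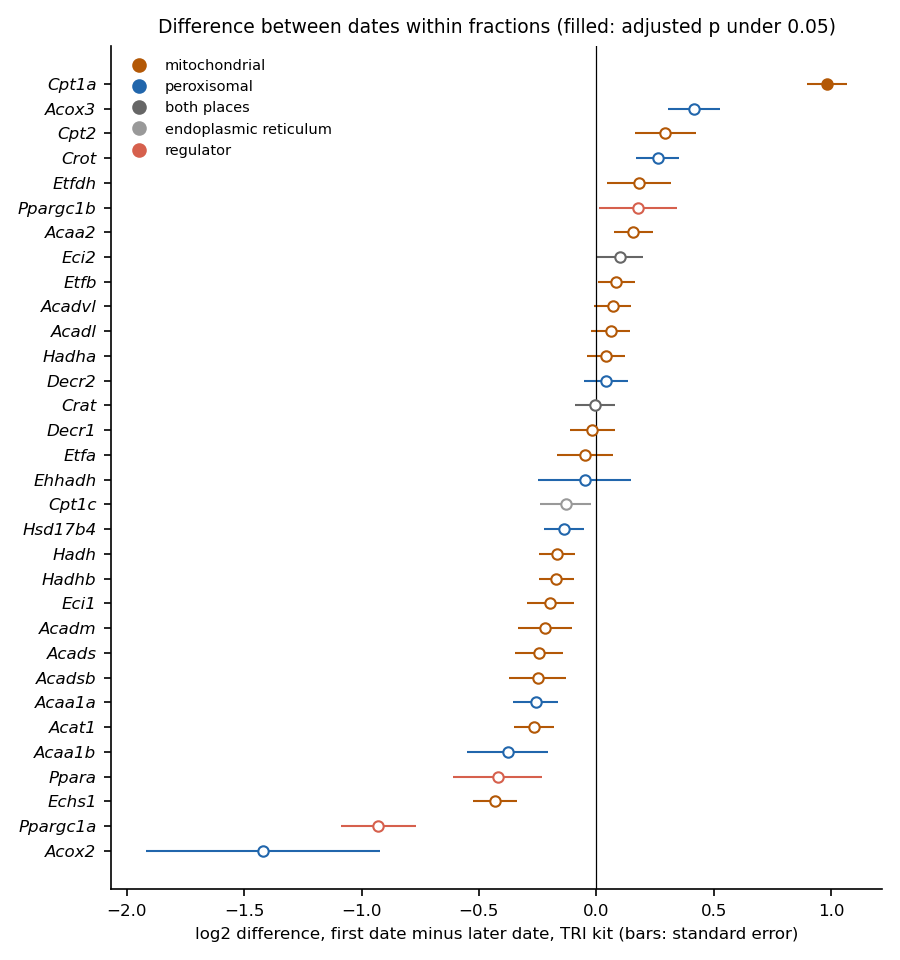
Log2 difference of the 32 tested members between the first and the later date, TRI kit, within fractions, with standard errors. Colours give the class and filled points passed an adjusted p of 0.05. Cpt1a, at 0.98, is the only filled point, and the others lie between -1.42 and 0.42.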

How the data were processed

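Polyadenylated RNA of 6 libraries was analysed from the raw gene counts the authors deposited, 1 column per library. Per the submitters' processing notes, which give no roles, the build was mm10 and the tools included HTSeq 0.6.1p1 and TopHat2 2.1.0. Gene annotation and strandedness: not given in the sources used here. A normalised sheet was left aside. Genes were filtered with filterByExpr, scaled by TMM and compared with edgeR 4.0.16 (R 4.3.3) by the quasi-likelihood F test, two-sided, with Benjamini-Hochberg adjustment over 15347 genes and a threshold of 0.05. SE is the log2 fold change divided by the root of F. CPM use the TMM-scaled library size, and log2 differences within a preparation a prior count of 2. Contrasts of date and kit came from a model with fraction plus preparation. Levels per kilobase use the principal transcript of GENCODE M21, which also gives coordinates on mm10. The fits were run on simulated data, whose outcome is not given here and lends no weight to the calls. For the contrast of fractions the simulation held no difference between preparations, although the libraries pair by preparation.

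The preparations, named in the titles, pair the libraries: deviations from fraction means correlated at 0.37, 0.42 and 0.33 across genes within preparations. No replicates were duplicates (chi-square per gene 16.9 to 212). The members and lists were chosen with earlier results of these data known. Genes to name were all members, the 3 of smallest p in each pathway list, Six2 and the 2 of smallest p in each cell type list, of which the last are given here only as sums of each list. The values of 1 gene under this rule are not reported here. The cell type lists that the text does not give were, in summed CPM of Six2-high against Six2-low, collecting duct (63.4 to 72.2 against 794 to 938), podocyte (52.3 to 63.9 against 794 to 922), immune (9.87 to 26.5 against 221 to 336), erythroid (5.74 to 18.8 against 138 to 1769.9), adipocyte (0.73 to 1.08 against 0.29 to 0.851) and muscle (11.0 to 16.1 against 5.39 to 7.25). Of all list genes 2 were matched by a RefSeq synonym and 1 was not matched. Alternatives were DESeq2 1.42.0, its size factors in edgeR, no filter, the replicate block, and leaving out libraries.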

Additional observations from a re-analysis of the deposited data

Results flagged for a closer look

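For 4 members the difference between fractions had one sign at the first date and the other in both preparations of the later date. None of the 4 passed the test between fractions, and the difference between dates was not tested. Acads was at -0.16 log2 units at the first date and 0.06 and 0.16 later, a gap of -0.27. Decr1 was at 0.06, then -0.19 and -0.11, a gap of 0.21. Hsd17b4 was at 0.03, then -0.08 and -0.15, a gap of 0.15. Eci2 was at -0.0015, then 0.19 and 0.32, a gap of -0.26.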

How the results depend on the processing

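Over 13 alternatives, 7 of the 16 called members passed each time: Acadm, Acadl, Acaa1b, Ehhadh, Crat, Ppara and Ppargc1a. Of all genes 50.1% passed in the main fit and 64.6% with the replicate block. That share is not given here for the other alternatives, so losses of calls there cannot be set against those of all genes. The calls of the 32 members were the same with DESeq2, its size factors in edgeR, and no filter. With the replicate block 24 members passed (12 mitochondrial, 7 peroxisomal in place of 4), 8 more than without. Leaving out 1 library gave 13 to 18 members, 5 to 9 mitochondrial, 4 to 6 peroxisomal and 36 to 52 of the pathway list genes. Leaving out both libraries of a preparation gave 8 to 15 members, 2 to 6 mitochondrial, 2 to 5 peroxisomal and 30 to 55 pathway genes, with 8, 2, 3 and 30 without replicate 3 and 12, 6, 2 and 35 without replicate 2. The gap between class medians, 0.19 with Acox2 included, ranged from 0.053 (without Six2-low replicate 2) to 0.28 (without Six2-high replicate 2). Without a filter 2 members differed between dates, as Ppargc1a also passed, lower at the first date. On leaving out 1 library the sign turned, without a call, for 4 members: Cpt1a (-0.60 to 0.16, positive without Six2-low replicate 1), Acads (-0.093 to 0.11, negative at -0.017, -0.0030 and -0.043 as well, without Six2-low replicates 1 and 2 and without both libraries of replicate 3), Decr1 (-0.18 to 0.063, positive without Six2-high replicate 2) and Hsd17b4 (-0.14 to 0.026, positive also at 0.012, without Six2-low replicate 3 and Six2-high replicate 2). With all exon positions as length, added after seeing the data, the peroxisomal share was 11.3% and 12.8% in Six2-high and Six2-low, against 10.9% and 12.0%. The cause of these changes was not tested.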
